A study of Homo sapiens with 66 samples.

Results

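The 9 secreted vascular factor genes ADM, EDN1, ANGPTL4, STC2, PDGFB, PGF, ANGPT2, EFNA1 and EFNA3 were examined for peaks of the subunits of hypoxia-inducible factor (HIF). They were chosen by name, and a peak was given to one of them when its centre lay in the gene body, or within 50 kb of a transcription start site (TSS) of the gene, and nearer to a TSS of that gene than to one of any other protein-coding gene. These are 9 of the 19473 protein-coding genes in the annotation, and 8 of them had at least 1 peak. They held 247 of the 131131 peaks on the main chromosomes, which merged into 25 of 50169 sites. EFNA1 and EFNA3 encode ephrins anchored in the cell surface by a lipid, so the word secreted fits them only loosely.

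The study mapped HIF-1α, HIF-2α and HIF-1β by chromatin immunoprecipitation and sequencing (ChIP-seq) in human cell lines, and 50 of its 66 samples had a peak list. Antibodies were against HIF-1α (16 lists), HIF-2α (16 lists) or HIF-1β (18 lists), and each of the 25 groups had 2 libraries, which the study describes as independent experiments. In the severity and duration experiment (24 lists), HKC-8 cells, a line from the renal proximal tubule, were kept in 3% O2 for 6 h or in 0.5% O2 for 6, 16 or 48 h. In the knockout experiment (14 lists), HKC-8 cells that were wild type (WT) or carried a frameshift in the HIF-1α gene (HIF-1α KO) or the HIF-2α gene (HIF-2α KO), made with CRISPR-Cas9, were kept in 0.5% O2 for 16 h. Each KO line was a single clone, so clone and genotype cannot be told apart, and no list was made with an antibody to the deleted isoform, so the deletion could not be checked here. RCC4 cells (6 lists) are renal carcinoma cells without functional VHL and were kept in normoxia. HepG2 cells (6 lists) are liver cancer cells and were kept in 0.5% O2 for 16 h. Line, genotype and oxygen therefore change together between RCC4 and HKC-8.

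A peak list records where the caller found a peak but not the depth or the signal elsewhere, and a peak missing from a list may lie just under the caller's limit. The number of peaks per list ranged from 237 to 1793 across the severity and duration lists, 915 to 8279 with the knockouts, 911 to 5680 in RCC4 and 3470 to 6851 in HepG2. The share of protein-coding genes with a peak ran from 0.683 to 6.22%, from 3.78 to 19.3%, from 3.44 to 19.3% and from 8.79 to 20.8%, in the same order. Strength is given only as a score percentile, the share of peaks in the same list with a lower score, where 100 is the strongest. The lists hold no expression values, so the identity of the lines was not checked against marker genes. Chromatin from a population of cells cannot tell fewer bound cells from weaker binding in each cell.

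In HepG2 the replicates of each HIF-α isoform differed in the share of promoter peaks, and 1 library lay outside the range of its label in the other lines. Of the peaks in the library labelled HIF-1α replicate 1, 6.70% lay within 1 kb of a TSS, against 28.6% in replicate 2. The shares were 30.5% in the library labelled HIF-2α replicate 1 and 8.06% in replicate 2. In the other lines they were 5.82 to 43.2% for HIF-1α (median 19.2%) and 2.11 to 11.1% for HIF-2α (median 8.22%), so that only HIF-2α replicate 1 lay outside its range. The overlap, as a share of the shorter list, was 25.9% between the libraries labelled HIF-2α and 34.95% between those labelled HIF-1α. Across the labels it was 50.1% for HIF-1α replicate 2 with HIF-2α replicate 1, 44.5% for HIF-1α replicate 2 with HIF-2α replicate 2, 33.2% for HIF-1α replicate 1 with HIF-2α replicate 2 and 26.8% for both first replicates. The labels were kept, and comparisons of the isoforms are given with and without HepG2.

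HIF is a dimer of an oxygen-regulated α subunit and the constitutive HIF-1β subunit. In oxygen the α subunits are hydroxylated, bound by VHL and degraded, and in hypoxia they pair with HIF-1β on hypoxia response elements (HRE), whose core is ACGTG or GCGTG. Among the classes of gene known to respond are secreted factors that change vessel tone and growth, through which a hypoxic cell acts on its blood supply.

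Sequence around the most often called site is shown for 5 of the genes with a site in at least 5 lists, because many of the calls below fell there. The PDGFB window is the exception for the KO lines. No list of either KO line called that site, and the PDGFB calls in those lines fell at other sites. Each window is 300 bases of GRCh37 (hg19), plus strand, centred on the median peak centre, and capitals mark HRE cores (ACGTG or GCGTG, or their reverse complements CACGT and CACGC) and AP-1 motifs (TGACTCA or its reverse complement TGAGTCA). The windows are chr11:10329444-10329743 for ADM, chr5:172756129-172756428 for STC2, chr22:39648207-39648506 for PDGFB, chr1:155098536-155098835 for EFNA1 and chr1:155057868-155058167 for EFNA3.
ADM: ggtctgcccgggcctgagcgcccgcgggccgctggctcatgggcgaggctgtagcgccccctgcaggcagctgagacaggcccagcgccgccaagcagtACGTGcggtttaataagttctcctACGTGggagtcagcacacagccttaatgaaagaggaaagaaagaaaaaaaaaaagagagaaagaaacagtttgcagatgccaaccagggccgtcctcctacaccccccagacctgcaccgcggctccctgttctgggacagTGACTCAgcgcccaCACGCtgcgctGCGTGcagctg
STC2: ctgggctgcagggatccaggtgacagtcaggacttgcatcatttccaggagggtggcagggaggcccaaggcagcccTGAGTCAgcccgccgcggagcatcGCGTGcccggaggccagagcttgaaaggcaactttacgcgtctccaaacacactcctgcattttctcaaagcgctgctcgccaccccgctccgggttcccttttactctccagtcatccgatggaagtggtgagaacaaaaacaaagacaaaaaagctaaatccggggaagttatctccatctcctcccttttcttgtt
PDGFB: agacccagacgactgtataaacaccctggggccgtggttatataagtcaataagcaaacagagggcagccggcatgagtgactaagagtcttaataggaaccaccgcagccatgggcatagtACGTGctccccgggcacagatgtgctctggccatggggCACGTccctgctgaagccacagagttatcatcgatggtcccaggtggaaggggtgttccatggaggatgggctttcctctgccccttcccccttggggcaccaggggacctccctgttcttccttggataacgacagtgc
EFNA1: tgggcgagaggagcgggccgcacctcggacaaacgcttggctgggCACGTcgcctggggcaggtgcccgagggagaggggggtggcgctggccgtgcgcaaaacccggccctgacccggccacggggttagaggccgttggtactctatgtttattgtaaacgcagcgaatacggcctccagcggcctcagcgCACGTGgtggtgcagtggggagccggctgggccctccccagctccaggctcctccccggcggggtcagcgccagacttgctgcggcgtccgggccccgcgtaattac
EFNA3: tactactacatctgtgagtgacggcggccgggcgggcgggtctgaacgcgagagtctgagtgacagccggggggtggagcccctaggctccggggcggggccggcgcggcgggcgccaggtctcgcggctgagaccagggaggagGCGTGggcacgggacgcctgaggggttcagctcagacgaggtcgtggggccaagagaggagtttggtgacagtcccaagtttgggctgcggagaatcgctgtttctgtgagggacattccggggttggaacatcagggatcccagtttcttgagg

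The ADM window held 4 HRE cores, the nearest 25 bp from the centre, and 1 AP-1 motif. The EFNA1 and PDGFB windows held 2 cores each, and 1 of the EFNA1 cores was the palindrome CACGTG. EFNA3 had 1 core, 3 bp from the centre. STC2 had 1 core, 47 bp from the centre, and 1 AP-1 motif. HRE cores were in the window of 7 of the 11 sites of these genes called in at least 5 lists (63.6%) and of 71.25% of the 6973 such sites genome-wide. AP-1 motifs were in 4 of 11 (36.4%) and in 21.0%. Over all sites the shares were 14 of 25 (56.0%) against 42.3% for HRE cores and 7 of 25 (28%) against 10.9% for AP-1. These are descriptions of few sites, and either motif can be present without binding.

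ADM, STC2 and ANGPTL4 were called most often, in 42, 41 and 35 of the 50 lists. EFNA1 was called in 20 lists, EFNA3 in 17, PDGFB in 15, EDN1 in 5, ANGPT2 in 2 and PGF in none. Having a peak in at least 1 list was common, with 61.9% of all genes, against 8 of these 9. A peak in at least 10 lists was found for 12.5% of genes and for 6 of the 9, and in at least 30 lists for 1.27% and for 3 of the 9. The genes were proposed with earlier results of these lists known, so these counts are no evidence that such genes are bound more often than others. The median was 17 lists over the 9 genes and 1 list over all genes.

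**Figure D1:**
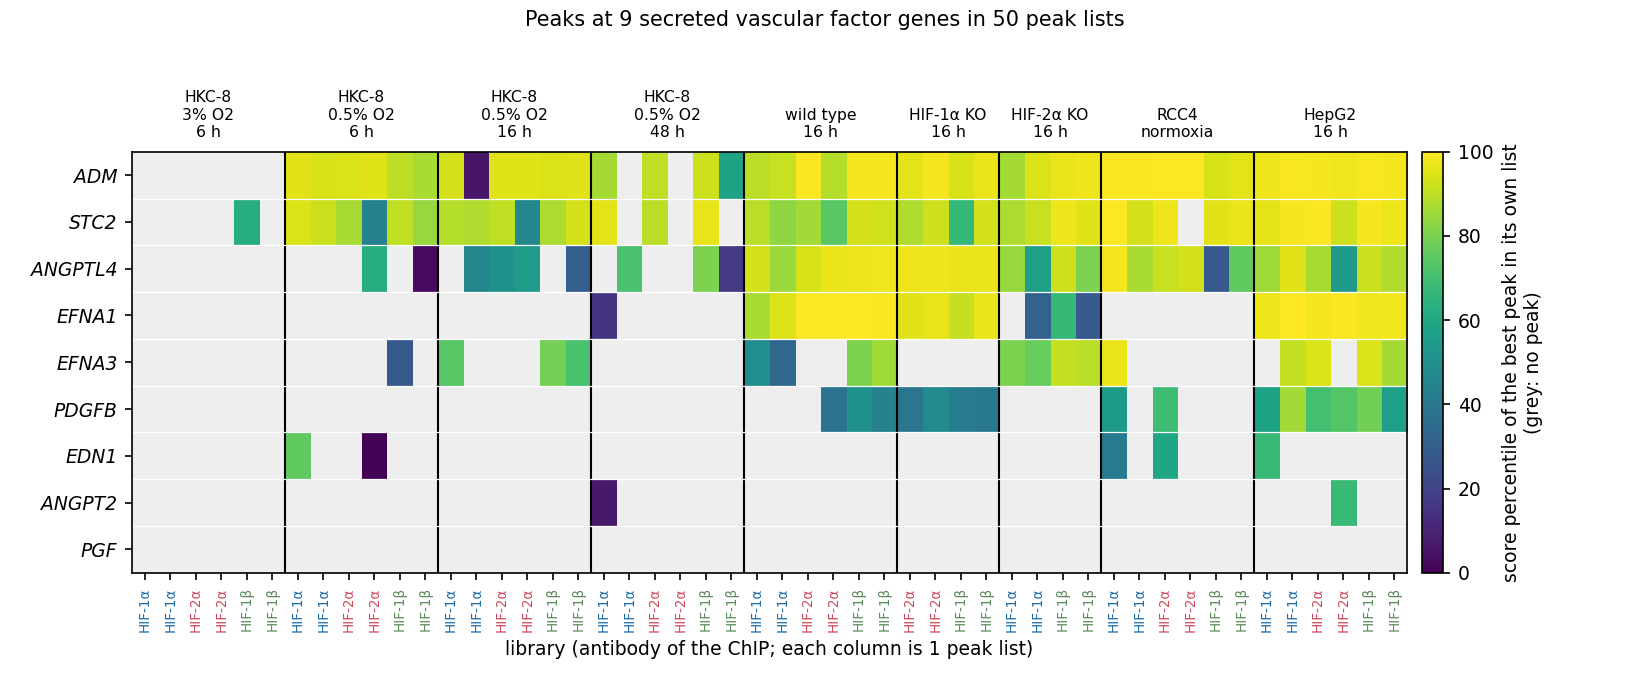
Score percentile of the strongest peak at each gene (rows) in each of the 50 peak lists (columns, labelled by antibody and grouped by condition), from 0 (dark) to 100 (yellow), with grey for no peak. ADM and STC2 are filled in nearly every list outside 3% O2, while EFNA1 is filled mainly in the knockout experiment and HepG2, and EFNA3 is filled in 1 HIF-2α list.

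Most calls at a gene fell on the same place in many lists. The HIF-α calls at the sites in at least 5 lists had a HIF-1β call at the same site in the same condition in 110 of 119 cases (92.4%). At the 14 rarer sites this held for 2 of 15 calls (13.3%). Over all sites in the series the shares were 82.2% and 15.4%, and because the minimum of 5 lists counts HIF-1β lists too, a gap between them is partly built in. The main ADM, STC2, ANGPTL4 and EFNA1 sites had a HIF-1β call beside every HIF-α call (26 of 26, 25 of 25, 20 of 20 and 11 of 11).

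**Figure D2:**
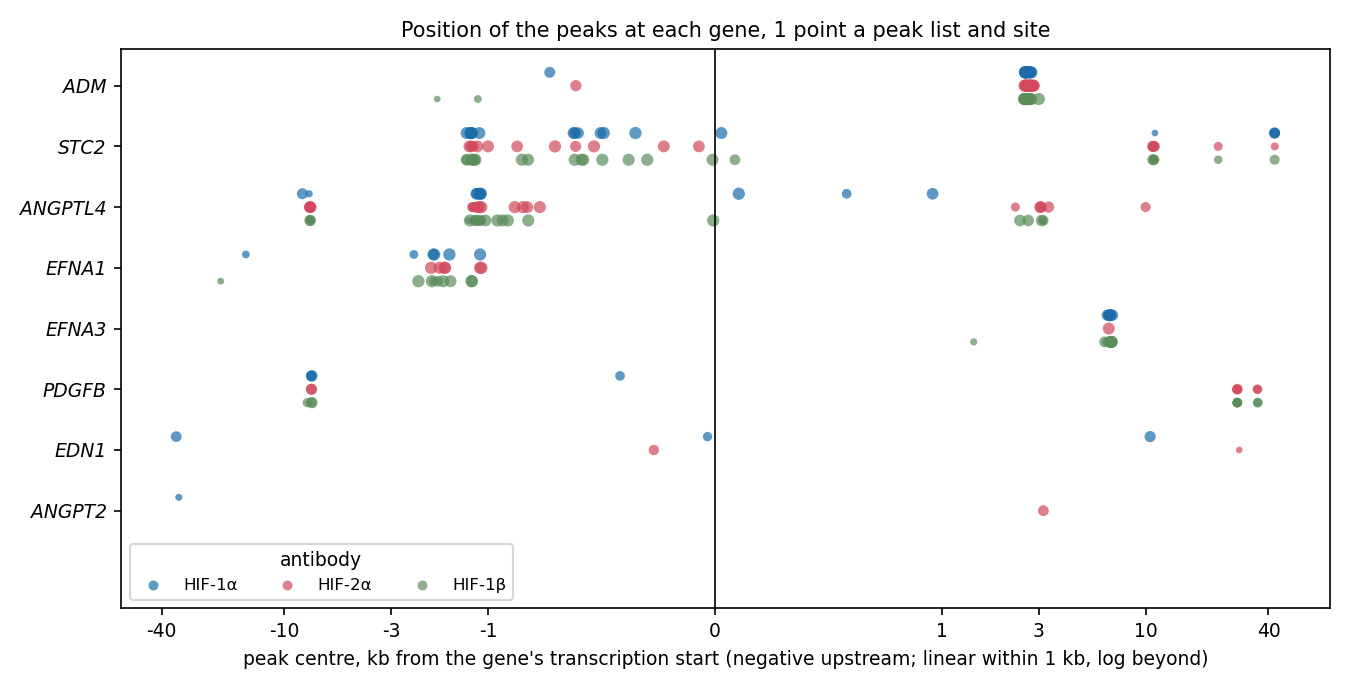
Position of each called peak along the x axis, in kb from the TSS of its gene (linear within 1 kb, log beyond), with 1 point for each list and site, coloured by antibody and larger for a higher score percentile. ADM peaks pile up between 2.54 and 2.99 kb downstream of the TSS, STC2 and ANGPTL4 peaks mostly about 1 kb upstream, and EFNA3 peaks 6.7 kb downstream.

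Peptides that set vessel tone came first. ADM (ENSG00000148926, chr11:10326620-10328944, plus strand) encodes adrenomedullin, a vasodilator, and its calls came from 13 HIF-1α, 13 HIF-2α and 16 HIF-1β lists. All 42 lists called the same site, chr11:10328159-10331736, whose median centre is 2.67 kb from the nearest TSS of ADM and 650 bp past the end of the gene. In 41 of the 42 lists the peak centre lay within 250 bp of the median position. The start of a transcript of AMPD3 that has no defined coding sequence lies 266 bp from the site, and the nearest start of a coding AMPD3 transcript 9.62 kb. When every annotated transcript could claim a peak, or when distance was taken to the gene body, the site went to AMPD3 and ADM was called in 0 lists.

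At ADM the percentiles in HKC-8 at 0.5% O2 for 6 h were 95.5 and 94.1 (HIF-1α), 94.4 and 95.1 (HIF-2α) and 89.99 and 87.1 (HIF-1β), and no list at 3% O2 had a peak. In WT cells of the knockout experiment they were 89.7 and 91.5 (HIF-1α), 99.2 and 89.0 (HIF-2α) and 98.7 in both HIF-1β lists. RCC4 lists gave 94.1 to 99.9 and HepG2 lists 97.4 to 99.2. ADM was thus among the strongest peaks of nearly every list that called it, with a median of 95.3. The lowest value was 5.94, in the HIF-1α replicate 2 list at 16 h, where replicate 1 gave 93.6.

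EDN1 (ENSG00000078401, chr6:12290594-12297427, plus strand) encodes endothelin-1, a vasoconstrictor, and was called in 5 lists, each from a single replicate of its group and none with HIF-1β. The calls fell at 4 sites. The only site called in more than 1 list lay 0.152 kb upstream of the TSS, chr6:12289542-12291202, with percentiles of 41.5 and 59.2 in the RCC4 HIF-1α and HIF-2α replicate 1 lists. The others were in HKC-8 at 6 h of 0.5% O2 (HIF-1α replicate 1 at 75.6, HIF-2α replicate 2 at 0.603) and in the HepG2 library labelled HIF-1α replicate 1 (67.7). None of the 5 EDN1 calls had a HIF-1β peak at the same site in its condition. With a score of at least 100 required, EDN1 had no call.

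ANGPTL4 and STC2, a pair of secreted proteins with roles beyond vessels, followed ADM in frequency. ANGPTL4 (ENSG00000167772, chr19:8428173-8439254, plus strand) encodes a secreted inhibitor of lipoprotein lipase. Its main site centred 0.937 kb upstream of the nearest TSS and was called in 34 lists, 9 with HIF-1α, 11 with HIF-2α and 14 with HIF-1β. It was called in all 14 lists of the knockout experiment, all 6 of RCC4 and all 6 of HepG2. In WT cells the percentiles at ANGPTL4 were 93.7 and 85.1 (HIF-1α), 93.9 and 97.1 (HIF-2α) and 97.4 and 97.8 (HIF-1β). In the severity and duration experiment ANGPTL4 was called in 0 of 6 lists at 3% O2, and in 2, 4 and 3 of 6 at 6, 16 and 48 h of 0.5% O2, with percentiles from 2.87 to 80.4.

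Further ANGPTL4 sites lay 7.48 kb upstream (chr19:8419965-8421360, 11 lists) and 3.07 kb downstream of the TSS in an intron (chr19:8430295-8433737, 10 lists). The intronic site was called by no HIF-1α library, by 5 HIF-2α libraries and by 5 HIF-1β libraries. In WT cells it had percentiles of 36.4 and 77.1 with HIF-2α and 63.9 and 85.2 with HIF-1β. Over the 7 conditions with both isoforms the intronic site was called in 0 of 14 HIF-1α lists and 3 of 14 HIF-2α lists, a difference that did not pass (exact permutation test, two-sided, p = 0.167, adjusted p = 0.743). Without HepG2 it was called in 0 and 3 of 12 (exact p = 0.167, adjusted p = 0.442).

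STC2 (ENSG00000113739, chr5:172741726-172755450, minus strand) encodes stanniocalcin-2, a secreted glycoprotein. Its main site, chr5:172753287-172759599, centred 0.862 kb upstream of the nearest TSS and was called in 41 lists, 13 with HIF-1α, 12 with HIF-2α and 16 with HIF-1β. At 6 h of 0.5% O2 the percentiles were 94.5 and 92.0 (HIF-1α), 86.8 and 44.2 (HIF-2α) and 90.3 and 84.6 (HIF-1β). At 3% O2 only HIF-1β replicate 1 had a peak, at 62.3. STC2 was also called in all lists of the knockout experiment and HepG2 (66.7 to 99.3) and in 5 of 6 of RCC4, where HIF-2α replicate 2 had none. A site in the gene's UTR, 10.9 kb downstream of the TSS (chr5:172742155-172743653), was called in 9 lists, all of the knockout experiment, and a site 42.9 kb downstream (chr5:172710222-172711629) in 5 lists, all of HepG2 or RCC4.

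Of the growth factors, PDGFB (ENSG00000100311, chr22:39619364-39640987, minus strand), whose protein recruits pericytes to vessels, was called in 15 lists. These calls were of middling strength, with percentiles of 38.1 to 86.2. In HepG2 all 6 lists called the site 7.37 kb upstream of the TSS, chr22:39647674-39649743, with percentiles of 56.6 to 86.2. The list labelled HIF-1α replicate 2 also called a site in an intron, 0.419 kb upstream of another PDGFB TSS that lies inside the gene, at 47.6. In HKC-8 most were past the end of the gene, at chr22:39608101-39609406, 28.1 kb from the TSS (7 lists, 1 of them RCC4) or at chr22:39600801-39602316, 35.3 kb from it (4 lists). The upstream site was called in 1 of the 14 lists of the knockout experiment, WT HIF-1β replicate 1, at 40.1, and in RCC4 by HIF-1α replicate 1, at 54.5. No list of the severity and duration experiment had a PDGFB peak.

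PGF and ANGPT2, which act through the receptors FLT1 and TEK, had few calls or none. PGF (ENSG00000119630, chr14:75408537-75422329, minus strand) encodes placental growth factor, of the VEGF family. The site nearest to it that was called in several lists, chr14:75445733-75448686, lay 25.7 kb from its TSS but 21.6 kb from that of EIF2B2, and by the rule went to EIF2B2. It was called in 12 lists, 1 with HIF-1α, 7 with HIF-2α and 4 with HIF-1β. ANGPT2 (ENSG00000091879, chr8:6357153-6420930, minus strand) encodes angiopoietin-2 and had 2 calls at different sites. These were at 67.8 in the HepG2 library labelled HIF-2α replicate 2 and at 6.85 in the HKC-8 HIF-1α replicate 1 list at 48 h, and neither had a HIF-1β call beside it.

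The ephrins EFNA1 and EFNA3, ligands of Eph receptors, lie near each other on chromosome 1, and their calls differed. EFNA1 (ENSG00000169242, chr1:155100352-155107375, plus strand) had its main site at chr1:155095986-155100972, centred 1.67 kb upstream of the TSS and called in 19 lists, 5 with HIF-1α, 6 with HIF-2α and 8 with HIF-1β. In WT cells its percentiles were 87.3 and 94.8 (HIF-1α), 99.97 and 99.7 (HIF-2α) and 99.8 and 99.6 (HIF-1β), and in HepG2 they were 97.4 to 99.6. No RCC4 list called it. Outside the HIF-2α KO line, the main EFNA1 site was thus either among the strongest peaks of a list or not called.

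EFNA3 (ENSG00000143590, chr1:155051313-155060014, plus strand) had its main site in an intron, chr1:155056474-155059771, centred 6.7 kb downstream of the TSS. The region is also within the EFNA4-EFNA3 readthrough gene. The site was called in 17 lists, 7 with HIF-1α, 1 with HIF-2α and 9 with HIF-1β. In WT cells the percentiles were 48.9 and 33.9 with HIF-1α and 80.2 and 85.5 with HIF-1β, and neither HIF-2α list had a peak. The single HIF-2α call was in the HepG2 library labelled HIF-2α replicate 1, at 94.5. Among the HepG2 HIF-α libraries, its peaks overlapped most with those labelled HIF-1α replicate 2, which gave 91.4.

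Whether the isoforms bound the same genes was asked over the 7 conditions with both antibodies, 14 lists each. EFNA3 was called in 5 HIF-1α lists and 1 HIF-2α list, a difference that did not pass (exact permutation test, two-sided, within condition, p = 0.153, adjusted p = 1.0). Without HepG2 it was called in 4 and 0 of 12 lists (exact permutation p = 0.0833, adjusted p = 1.0). The other genes were called about as often with either isoform, with 11 and 11 lists for ADM, 11 and 10 for STC2, 8 and 9 for ANGPTL4, 5 and 4 for EFNA1, 3 and 4 for PDGFB, 3 and 2 for EDN1 and 1 and 1 for ANGPT2. Without HepG2 the counts were 9 and 9 of 12 lists for ADM, 9 and 8 for STC2, 6 and 7 for ANGPTL4, 3 and 2 for EFNA1, 1 and 2 for PDGFB, 2 and 2 for EDN1 and 1 and 0 for ANGPT2. The exact permutation test called 0 of 10808 genes (0%) at an adjusted p under 0.05 and 221 (2.04%) at an unadjusted p under 0.05, none of them these genes. Over sites, 0 of 5187 passed and 365 (7.04%) did so unadjusted, and without HepG2 11 of 3383 sites passed, none at these genes.

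Which genes had calls with 1 isoform deleted was asked in the KO lines. In the HIF-1α KO line EFNA3 had no peak in any of 4 lists, 2 with HIF-2α and 2 with HIF-1β. In the HIF-2α KO line all 4 had one, at 80.2 and 76.9 with HIF-1α and 91.2 and 89.7 with HIF-1β. PDGFB was the reverse, with calls in 4 of 4 lists of the HIF-1α KO line, at 39.2 to 47.8, and in 0 of 4 of the HIF-2α KO line. In the HIF-1α KO line HIF-2α replicate 2 called only the PDGFB site 35.3 kb from the TSS, and the other lists only that 28.1 kb from it. WT cells had a PDGFB call in 0 of 2 HIF-1α lists and 1 of 2 HIF-2α lists, so its absence with HIF-1α in the HIF-2α KO line was no change. ADM, STC2 and ANGPTL4 were called in all 8 lists. EFNA1 was called in all 4 of the HIF-1α KO line, at 91.2 to 96.9, and in 3 of 4 of the HIF-2α KO line, at 31.6 with HIF-1α replicate 2 and 66.8 and 28.3 with HIF-1β.

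**Figure D3:**
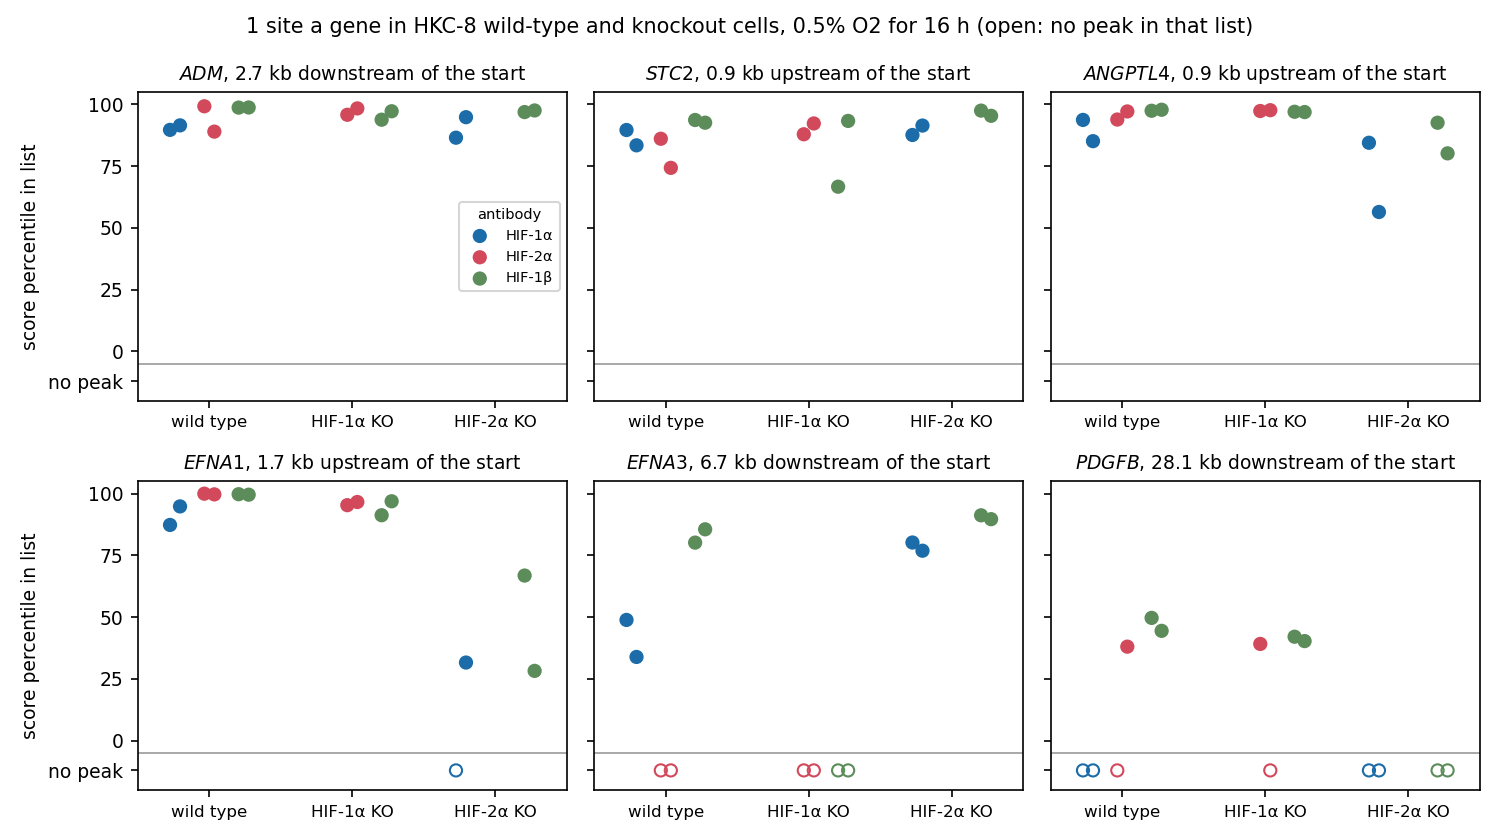
Score percentile (y axis) at 1 site of each of 6 genes in WT, HIF-1α KO and HIF-2α KO cells (x axis), with 1 point for each list coloured by antibody and open points below the line for lists without a peak. EFNA3 is open in both antibodies of the HIF-1α KO line, PDGFB in both antibodies of the HIF-2α KO line, and EFNA1 is lower in the HIF-2α KO line than elsewhere. The PDGFB site shown lies 28.1 kb from the TSS. It is also open with HIF-1α in WT cells, and in 1 HIF-2α list each of WT and HIF-1α KO cells.

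HIF-1β was precipitated in both KO lines and can be compared directly, with 2 lists against 2, where the smallest p an exact permutation test can give is 0.333. EFNA3 and PDGFB each had that exact p of 0.333 (adjusted p = 1.0), and 0 of 3580 genes passed (0%). Calls in both HIF-1β lists of the HIF-1α KO line and neither of the HIF-2α KO line, as for PDGFB, were found for 16.4% of the 3580 genes tested, and the reverse, as for EFNA3, for 7.21%. Of the 2726 genes with a peak in both WT HIF-1β lists, 434 (15.9%) had the PDGFB pattern, 205 (7.52%) the EFNA3 pattern and 672 (24.7%) a call in all 4 HIF-1β lists of the KO lines, as ADM, STC2, ANGPTL4 and EFNA1 had. These patterns were therefore common, and the genes were not particular in having them.

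Within a gene, calls at single sites were not alike between the KO lines. The upstream site of ANGPTL4 at 7.48 kb and the UTR site of STC2 were called in 2 of 2 HIF-1β lists of the HIF-1α KO line. In the HIF-2α KO line they were called in 0 of 2, while the main site of each gene was called in 2 of 2 of both. The intronic ANGPTL4 site had 2 of 2 against 1 of 2. With the HIF-α lists included, the counts were 4 of 4 against 0 of 4 at the first sites and 4 of 4 against 1 of 4 at the intronic site. Those HIF-α lists used a different antibody in each line, and no share over all sites was taken for these counts. Over all 7136 sites, 19.5% were called in both HIF-1β lists of the HIF-1α KO line and neither of the HIF-2α KO line, and 5.2% the reverse. List length differed in the same direction, with 3387 and 5786 HIF-1β peaks in the HIF-1α KO line and 2550 and 2085 in the HIF-2α KO line. With each list cut to its 2082 strongest peaks, the HIF-1β calls in the HIF-1α KO line fell from 2 to 1 at the upstream ANGPTL4 and STC2 UTR sites. They also fell from 2 to 1 at the PDGFB site 28.1 kb from the TSS, and EFNA3 stayed at 0 against 2. At the intronic ANGPTL4 site the HIF-1β calls went from 2 against 1 to 2 against 0.

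The effect of oxygen was asked in HKC-8 at 6 h. ADM was called in 6 of 6 lists at 0.5% O2 and in 0 of 6 at 3% O2 (exact permutation test, two-sided, within antibody, p = 0.00926, the smallest possible, adjusted p = 1.0). It was the 1 gene of 4759 tested with that pattern (0.021%). The 6 lists of a condition are 2 libraries for each antibody, and HIF-1β pairs with either α subunit. They may therefore not be 6 independent samples, and the exact p may be too small. STC2 was called in 6 and 1 lists (exact p = 0.0278, adjusted p = 1.0), ANGPTL4 in 2 and 0, EDN1 in 2 and 0 and EFNA3 in 1 and 0. All 5 genes with a call had fewer at 3% O2, as did 55.9% of genes. The exact permutation test called 0 of 4759 genes (0%) at an adjusted p under 0.05, and 9 (0.189%), ADM and STC2 among them, at an unadjusted p under 0.05.

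Lists were shorter at 3% O2, with 558 to 1223 peaks against 1271 to 1496. Of the 40 genes called in all 6 lists at 0.5% O2, 39 had at least 1 call at 3% O2, with a median of 4 lists. These genes were picked for their calls at 0.5% O2, ADM and STC2 among them, so fewer calls at 3% O2 are partly built in. With lists cut to equal length ADM kept its p of 0.00926 (exact permutation), and STC2 had an exact p of 0.0833. With a score of at least 100 required, ADM had an exact p of 0.0278 and STC2 one of 0.167.

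**Figure D4:**
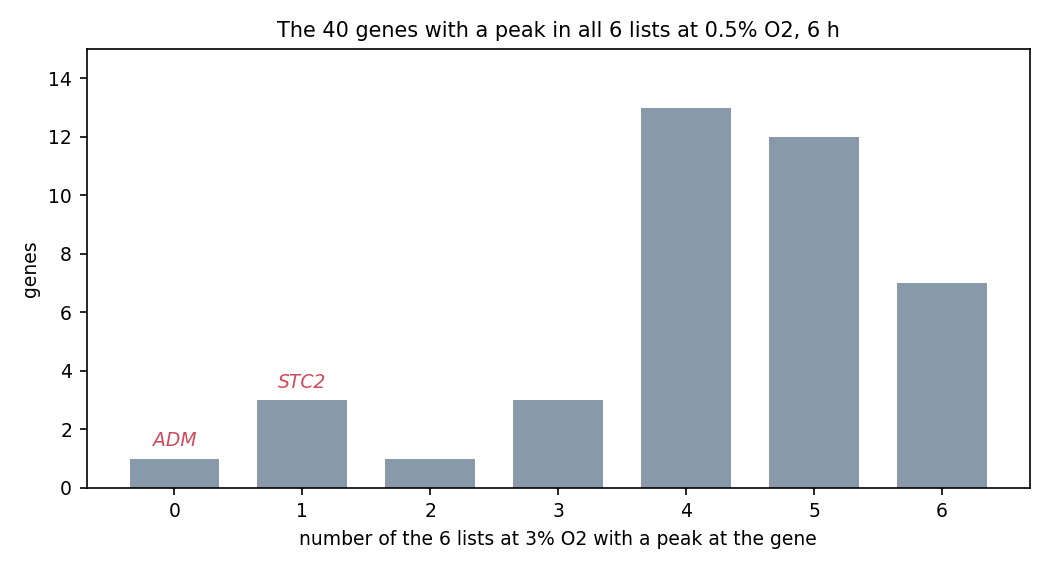
The 40 genes called in all 6 HKC-8 lists at 0.5% O2 for 6 h, counted (y axis) by how many of the 6 lists at 3% O2 also called them (x axis). ADM stands alone at 0 and STC2 is 1 of 3 genes at 1, while the median gene kept 4 lists. Picking genes by their calls at 0.5% O2 partly builds in fewer calls at 3% O2.

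Between durations of hypoxia, no difference passed the exact permutation test. Between 6 and 16 h at 0.5% O2, ADM and STC2 stayed at 6 of 6 lists, ANGPTL4 was called in 2 and 4 lists, EFNA3 in 1 and 3 and EDN1 in 2 and 0. At 48 h ADM was called in 4 of 6 lists and STC2 in 3 of 6 (against 6 h, exact p = 0.5 and 0.25). The ADM lists without a peak were replicate 2 of HIF-1α and of HIF-2α, and STC2 had none in any replicate 2 list. The HIF-2α replicate 2 list at 48 h held 237 peaks, the fewest of any. The exact test called 0 of 4937 genes (0%) between 16 and 6 h and 0 of 4702 (0%) between 48 and 6 h, with 5 (0.101%) and 3 (0.0638%) at an unadjusted p under 0.05.

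Between lines, the comparison was with WT cells of the knockout experiment. The RCC4 and HepG2 lists came from other experiments than these cells, so line and experiment were not told apart. EFNA1 was called in 6 of 6 WT lists and 0 of 6 RCC4 lists (exact permutation test, two-sided, p = 0.00926, adjusted p = 0.576), a pattern it shared with 1.23% of 7295 genes. EFNA3 was called in 4 and 1 (exact p = 0.167), EDN1 in 0 and 2, PDGFB in 3 and 2, STC2 in 6 and 5, and ADM and ANGPTL4 in all lists of both. No gene of 7295 passed (0%), and 310 (4.25%) did so unadjusted, EFNA1 among them. The EFNA1 contrast depended on which HKC-8 lists were compared. Those made at 0.5% O2 for 16 h outside the knockout experiment also called EFNA1 in 0 of 6, as RCC4 did. In HepG2 PDGFB was called in 6 lists against 3 in WT (exact p = 0.167, adjusted p = 0.617), EFNA3 in 4 of each, and ADM, STC2, ANGPTL4 and EFNA1 in all lists of both lines. Within 10 kb of the TSS the PDGFB difference in share was 0.833 (exact p = 0.0278, adjusted p = 0.340). Of 8568 genes 0 passed (0%) and 719 (8.39%) did so unadjusted.

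HKC-8 cells at 0.5% O2 for 16 h were assayed in both HKC-8 experiments, and a comparison of these was added after the values were seen. EFNA1 was called in 6 of 6 WT lists of the knockout experiment and in 0 of 6 lists of the severity and duration experiment (exact permutation p = 0.00926, adjusted p = 0.305). PDGFB was called in 3 and 0, EFNA3 in 4 and 3, ANGPTL4 in 6 and 4, and ADM and STC2 in all. In the severity and duration experiment no list at any oxygen level or time called the main EFNA1 site. By mean percentile over the WT lists, EFNA1 (96.85) stood at position 45 of all genes, and it was the 1 gene of those 45 with no call at 16 h. Those 45 were cut at the position of EFNA1 itself, after its values were seen, so this is no evidence that EFNA1 is particular. Calls in all 6 WT lists and in none at 16 h were found for 143 of 5692 genes (2.51%). None passed (0%), and 441 (7.75%) did so unadjusted. Experiment and list length change together here and were not told apart. In the WT lists EFNA1 ranked between 2 and 243 by score, and the shortest 16 h list held 951 peaks. The cause of the difference was not tested.

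**Figure D5:**
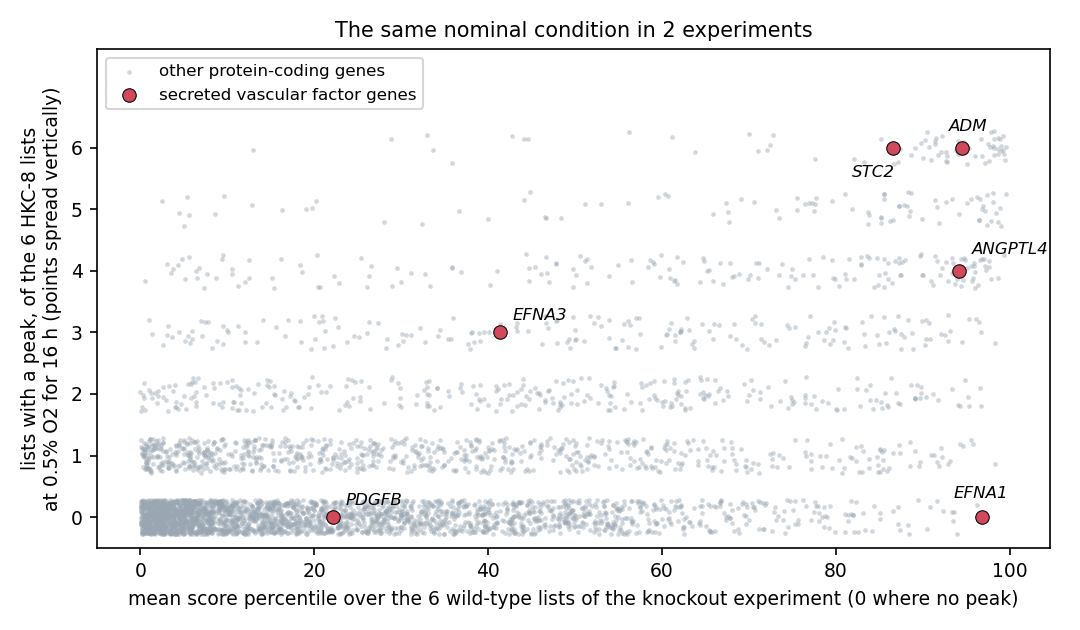
Mean score percentile over the 6 WT lists of the knockout experiment (x axis, 0 where a list had no peak) against the number of the 6 HKC-8 lists at 0.5% O2 for 16 h with a peak (y axis, other genes spread vertically for display), with 1 point for each protein-coding gene. EFNA1 lies at 96.85 with 0 lists, while ADM and STC2 lie at 6 lists and ANGPTL4 at 4.

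Which other genes had calls in the same lists was measured by the Jaccard index, the lists called for both genes divided by those called for either. The 50 lists differ in antibody and in number of peaks, and likeness between genes can come from these alone. ADM was most like FUT11 and TNIP1 (0.953 each, 41 of 43 lists), STC2 most like DNAJB12 (0.952) and then FUT11 (0.930, tied with another gene), and ANGPTL4 most like CP (0.829) and NAT10 (0.821). EFNA1 was most like TMEM51 (0.9) and DNAJB13 (0.864), EFNA3 like HPRT1 (0.944, 17 of 18 lists), and PDGFB like CEACAM16 and ELL (0.882 each, 15 of 17).

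Related genes were counted in the same way. Among 25 relatives, 17 had a peak, 7 in at least 10 lists and 1, EDN2, in at least 30, with a median of 3 lists. EDN2, a paralogue of EDN1 that also encodes an endothelin, was called in 40 lists against 5 for EDN1. VEGFA and STC1 were called in 25 lists each and PDGFC in 26, against 0 for PGF, 41 for STC2 and 15 for PDGFB. Among 23 receptors and processing enzymes, 16 had a peak and 5 in at least 10 lists, with a median of 2. ECE1, which converts endothelin precursors, was called in 39, PDGFRB, the receptor of the PDGFB product, in 32, and TEK in 27, while FLT1 was called in none.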

How the data were processed

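ChIP-seq peak lists from 50 libraries were used, and 16 input samples were not analysed here. Per the study's methods and the submitters' processing notes, the authors trimmed reads with Trim Galore 0.3.3, aligned them to GRCh37 (hg19) with BWA 0.7.5a-r405, filtered with SAMtools 0.1.19, bedtools 2.17.0 and Picard 1.106, and called peaks in each library with MACS in control mode (version not given in the sources used here). The study also called peaks with T-PIC, and kept peaks of both callers above a background level. The deposited peaks carry MACS names numbered without gaps in each list, so that selection does not show in them. Each list gives intervals and a score that the authors' caller deposited, with a lowest value of 50.0, which was used for ranks within a list and, as an alternative, for a minimum of 100. Of 131425 peaks, 294 off chromosomes 1 to 22, X and Y were left out.

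Peak centres were assigned to the nearest of 88655 protein-coding TSS in GENCODE 44 mapped to GRCh37. Peaks overlapping by at least 1 bp across lists were merged into sites. Calls were compared by exact permutation tests of libraries within antibody or condition, two-sided, with Benjamini-Hochberg adjustment over all genes or sites tested, and the scripts were tested on simulated data. With 12 libraries the smallest p is 0.00926. Tests of oxygen, duration and line permuted each antibody separately, though HIF-1β pairs with both α subunits. If the antibodies of a condition are not independent, these exact p-values are too small. All members are named, sites in at least 5 lists are described singly, and for likeness the 2 other genes with the largest Jaccard index are given. A window and a gene chosen by these rules are not reported here. The members and lists were chosen with earlier results of these data known. Replicate lists shared 6.38 to 87.3% of the shorter list (median 42.2%). Depth is unknown, which limits every absence. Motifs were searched in 300 bp windows. Python 3.11.15, numpy 2.4.6, pandas 2.3.3 and pysam 0.24.0 were used.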

Additional observations from a re-analysis of the deposited data

How the results depend on the processing

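Every count of genes past an adjusted p of 0.05 was 0 under each alternative run. For sites with HIF-1α against HIF-2α it was 0, and 11 of 3383 without HepG2, none at these genes. The smallest possible exact permutation p was 0.00926 with 12 libraries, and many genes had to reach it before any could pass adjustment. Between the KO lines it was 0.333, where no gene could pass. Counts of 0 in these tests therefore do not show that no gene differed. Genes with a peak numbered 8, and 8 within 10 kb, 7 with the TSS of all annotated genes, 7 by distance to the gene body and 6 with a score of at least 100, where ADM was called in 38 lists, STC2 in 36, ANGPTL4 in 24, EFNA1 in 17, EFNA3 in 13 and PDGFB in 8. Some differences in share with no call changed sign. For HIF-1α minus HIF-2α these were PDGFB within 10 kb (0.0714), ANGPTL4 with a score of at least 100 (0.0714) and EDN1 (-0.143 without replicate 1, 0.286 without replicate 2). Those of sites were the main ANGPTL4 site (0.0714) and the upstream PDGFB site (-0.0714) with a score of at least 100. EFNA1 changed sign by score percentile, where the difference was -0.224 percentile points on a scale up to 100, not a share of lists. PDGFB in RCC4 minus WT was 0.167 with lists of equal length, 0.333 without replicate 2 and -0.667 without replicate 1, and EFNA3 in WT minus the 16 h lists was -0.167 with equal lengths. The cause was not tested. The deviations of same-numbered libraries had correlations from -0.312 to 0.0998, none over 0.1. With 2 libraries a group, both replicate numbers gave the same value, so this check cannot exclude that the numbers pair the samples. With the replicate number as a block, the count of calls stayed 0, and the exact p was 0.0312 for ADM at 3% O2, 0.219 for EFNA3 between isoforms and 0.0625 for EFNA1 in RCC4. Peak lists limit what absences mean, since depth is unknown.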
